A study of Mus musculus with 12 samples.

Results

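The genes described here are 8 Toll-like receptors (Tlr1, Tlr2, Tlr3, Tlr4, Tlr5, Tlr6, Tlr7 and Tlr9), the co-receptor Cd14 and the adaptor Myd88. They were chosen by name, as members of 1 pathway, and are 10 of the 40760 genes counted. All 10 passed edgeR's filter on low counts and are among the 17418 genes tested. Their levels were measured by RNA-seq in 12 libraries of Pdgfra+ (CD140a+) cells sorted by flow cytometry from mouse lung, 3 libraries in each of 4 groups: WT vehicle, WT bleo, Pear1-/- vehicle and Pear1-/- bleo.

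All libraries came from male mice, which the study's methods give as 8 to 12 weeks old on a C57BL/6 background unless stated otherwise. WT is wild-type and Pear1-/- carries a knockout-first cassette in Pear1, a receptor gene, in every cell of the animal. Bleo is bleomycin, a drug that injures the lung and is used to induce fibrosis, given as an aerosol into the trachea. The methods name doses of 1.5 and 2 µg per g of body weight, and analyse the model on day 21, while the dose, the day of harvest and the number of mice behind these libraries in particular were not given in the sources used here. P-values therefore measure the spread between these libraries, which may be technical in part.

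Toll-like receptors recognize microbial molecules and molecules released from damaged tissue. Tlr1, Tlr2, Tlr4, Tlr5 and Tlr6 act at the cell surface, while Tlr3, Tlr7 and Tlr9 bind nucleic acids inside endosomes. Every Toll-like receptor except Tlr3 can signal through Myd88, which leads to NF-kB and to inflammatory cytokines. Macrophages and other myeloid cells carry most of these receptors, and lung fibroblasts are known to respond to ligands of Tlr2, Tlr3 and Tlr4.

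After bleo, the mRNA levels of Tlr1, Tlr2, Tlr7, Tlr9 and Cd14 rose in WT and rose less in the libraries labelled Pear1-/-. Macrophage and monocyte markers moved with them, 13 of 15 being higher in WT bleo than in WT vehicle and 12 of 15 lower in Pear1-/- bleo than in WT bleo, and their part in the levels was not tested. In WT bleo, Tlr1 was 7.48-fold, Tlr9 6.63-fold, Tlr7 4.11-fold, Tlr2 3.38-fold and Cd14 3.04-fold above WT vehicle. In Pear1-/- bleo the same genes stood at between 0.245 and 0.689 times their WT bleo level. Tlr3 was at a like level in WT vehicle and WT bleo but 0.490 times the WT bleo level in Pear1-/- bleo. Myd88, Tlr4 and Tlr6 moved by under 2-fold in every comparison of groups with all 12 libraries, although Tlr6 rose 2.78-fold in WT bleo without WT vehicle replicate 2. Tlr5, the gene with the fewest counts, was higher in Pear1-/- bleo than in WT bleo. The plot of normalized counts by library shows all 10 genes.

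**Figure D1:**
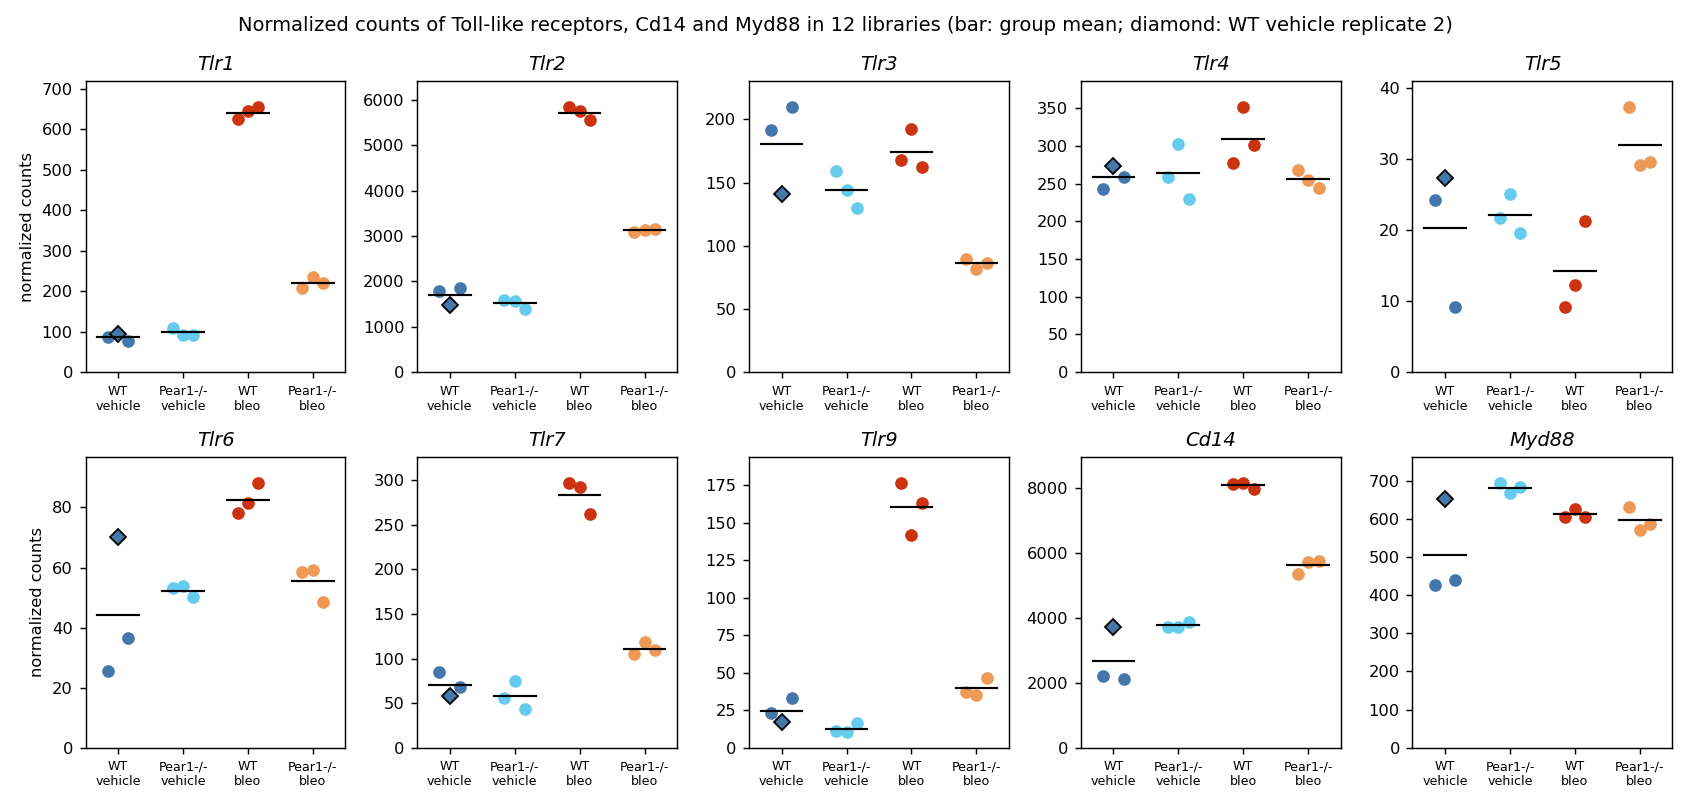
Normalized counts (deposited counts divided by a size factor per library, linear axes from 0, a scale of its own for each gene) of the 10 genes in 12 libraries, 3 per group. Points are libraries, bars are group means, and the diamond is WT vehicle replicate 2. Tlr1, Tlr2, Tlr7, Tlr9 and Cd14 were highest in all 3 WT bleo libraries, with Pear1-/- bleo between WT bleo and vehicle, while Myd88 in WT bleo lay within the range of WT vehicle.

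The bases just before the first annotated exon are shown for Tlr1, Tlr9 and Tlr2, the receptors with the largest rise in WT bleo among those that the RefSeq promoter table holds. The table (build GRCm38.p6) matched 7 of the 10 genes, and the window ran up to 250 bases before the RefSeq start, cut where an annotated exon began. Capitals mark GAGGAA, the core bound by PU.1 and related ETS factors, TGANTCA, the AP-1 motif, and the consensus motif of NF-kB. These were searched on both strands, together with an interferon-response motif and a narrower form of the NF-kB motif. Tlr1 is at chr5:64933564-64933808 on the minus strand, Tlr9 at chr9:106222348-106222597 on the plus strand and Tlr2 at chr3:83841768-83841858 on the minus strand.
Tlr1: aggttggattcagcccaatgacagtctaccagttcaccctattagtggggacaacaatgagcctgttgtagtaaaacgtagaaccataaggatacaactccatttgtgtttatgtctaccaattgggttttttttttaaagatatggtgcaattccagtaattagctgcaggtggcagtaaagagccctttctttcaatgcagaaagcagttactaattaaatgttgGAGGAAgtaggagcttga
Tlr9: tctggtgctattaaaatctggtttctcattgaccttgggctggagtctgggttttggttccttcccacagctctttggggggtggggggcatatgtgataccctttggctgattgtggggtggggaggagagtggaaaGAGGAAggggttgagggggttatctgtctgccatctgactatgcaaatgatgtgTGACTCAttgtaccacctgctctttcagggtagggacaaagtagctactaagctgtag
Tlr2: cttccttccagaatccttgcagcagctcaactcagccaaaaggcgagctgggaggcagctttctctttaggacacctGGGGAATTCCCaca

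Counted back from the end of each printed sequence, GAGGAA began 18 bases before the first annotated exon of Tlr1 and 112 bases before that of Tlr9, and the AP-1 motif 58 bases before that of Tlr9. In Tlr2, matches to the NF-kB consensus began 14 and 13 bases before the exon and overlapped each other. Both fit the motif on the printed strand, and the one at 13 bases, a palindrome, fits on the other strand too. Over the whole 250 bases before the RefSeq start, GAGGAA was found in 2 of the 7 genes, the AP-1 motif in 1 (Tlr9) and the NF-kB consensus in 2 (Tlr2 and Tlr3, the latter with the narrower form too). The interferon-response motif was found in 2 (Tlr6 and Myd88). Of the 32851 promoters in the table, 23.3% held GAGGAA, 6.75% the AP-1 motif, 3.90% the NF-kB consensus, 1.41% its narrower form and 2.98% the interferon-response motif. These matches are descriptions of sequence and say nothing of binding.

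Total counts ran from 6702948 to 10447101 per library. The limit of detection, taken as 3 counts, was therefore 0.287 to 0.448 CPM (counting error only). CPM is here the counts divided by the library's total and scaled to a common size. Elsewhere in the text, CPM values are also scaled by edgeR's TMM factor of each library. The label of a library gives its genotype: Pear1 had 547 ± 28.8 normalized counts in WT vehicle and 519.7 ± 24.0 in Pear1-/- vehicle (SD, n = 3), a log2 difference of -0.08 (adjusted p = 0.471), and was higher in Pear1-/- bleo (357 ± 14.2) than in WT bleo (254 ± 14.0). Reads over the whole gene cannot tell a trapped transcript from an intact one, so the libraries are called by their labels. WT vehicle replicate 2 stood apart from WT vehicle replicates 1 and 3, with a chi-square per degree of freedom of 24.5 and 25.6, against 1.80 to 2.82 with the 3 Pear1-/- vehicle libraries and 1.36 to 5.18 for the other replicate pairs. In no case of the 10 genes did it lie between WT vehicle replicates 1 and 3, and for 6 genes it lay within the range of Pear1-/- vehicle. Values of the 10 genes that change their call, their direction or their fold by 1.5 times or more without this library are therefore given without it too.

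The sorted cells were checked against cell type markers. Pdgfra itself averaged 4565 ± 325 normalized counts for WT vehicle, 4165 ± 39.1 for Pear1-/- vehicle, 1360.1 ± 29.9 for WT bleo and 2392 ± 18.8 for Pear1-/- bleo. No marker of any list was at 0 in any library. The summed level of 15 macrophage and monocyte markers ran from 929 to 1024 CPM for WT vehicle, 964 to 1032 for Pear1-/- vehicle, 10285 to 10541 for WT bleo and 3821 to 3948 for Pear1-/- bleo. The sum of 10 fibroblast markers was 16966 to 19043, 18872 to 19634, 12698 to 12809 and 32632 to 33613 in the same order. Single markers did not follow the sum: in Pear1-/- bleo against Pear1-/- vehicle, 3 of 10 (the collagen genes Col1a1, Col1a2 and Col3a1) were higher and 7 lower (median log2 fold change -1.19). In bulk samples, fewer cells of a type and less RNA per cell cannot be told apart.

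Tlr2, which forms heterodimers with Tlr1 or Tlr6 to bind bacterial lipopeptides, is a single-transcript gene at chr3:83836272-83841767 (GRCm38, minus strand, ENSMUSG00000027995). It had 1781, 1471 and 1850.0 normalized counts in WT vehicle, 1597, 1571 and 1388 in Pear1-/- vehicle, 5829, 5749 and 5559 in WT bleo, and 3090.0, 3135 and 3157 in Pear1-/- bleo. All bleo libraries lay above all vehicle libraries, and all WT bleo libraries above all Pear1-/- bleo libraries. Its log2 fold change was 1.76 in WT (standard error 0.087, adjusted p = 1.26e-10) and 1.05 in Pear1-/- (standard error 0.086, adjusted p = 6.28e-08), and Pear1-/- bleo was lower than WT bleo (log2 fold change -0.88, standard error 0.085, adjusted p = 6.76e-07).

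Tlr1 lies at chr5:64924679-64933563 (minus strand, ENSMUSG00000044827), with Tlr6 beside it at chr5:64952031-64960097 (minus strand, ENSMUSG00000051498). Normalized counts of Tlr1 were 87.3, 94.4 and 76.7 in WT vehicle, 109, 91.8 and 92.8 in Pear1-/- vehicle, 625, 646 and 654 in WT bleo, and 208, 235 and 221 in Pear1-/- bleo. Bleo libraries did not overlap with vehicle libraries in either genotype, nor WT bleo with Pear1-/- bleo. The rise was 2.90 on the log2 scale in WT (standard error 0.096, adjusted p = 1.31e-12) and 1.18 in Pear1-/- (standard error 0.098, adjusted p = 7.35e-08), and Pear1-/- bleo was 1.55 lower than WT bleo (log2 fold change -1.55, standard error 0.084, adjusted p = 1.57e-09).

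Tlr6 had 25.5, 70.0 and 36.6 normalized counts in WT vehicle, 53.0, 53.8 and 50.2 in Pear1-/- vehicle, 78.1, 81.6 and 88.1 in WT bleo, and 58.6, 59.3 and 48.6 in Pear1-/- bleo. The middle WT vehicle value is replicate 2, and it lay above every Pear1-/- vehicle library. Tlr6 rose in WT bleo (log2 fold change 0.89, standard error 0.25, adjusted p = 0.00516), and without WT vehicle replicate 2 the log2 fold change was 1.48 (adjusted p = 4.76e-08). In Pear1-/- the bleo effect was 0.09 on the log2 scale, with a 95% interval from -0.44 to 0.62 (adjusted p = 0.765). Between Pear1-/- bleo and WT bleo the log2 fold change was -0.58 (adjusted p = 0.0548), although these groups did not overlap, and it passed the threshold without any one of the 3 WT vehicle libraries (adjusted p = 0.0192, 0.00137 and 0.0469 without replicate 1, 2 and 3). It was called in 5 of the 19 other settings, and the adjusted p reached 0.183 without Pear1-/- bleo replicate 3. The transcripts of Tlr1 and Tlr6 share an exact run of 229 bases, and 20.1% of the 31-base words of Tlr1 occur in Tlr6, so that the division of reads between this pair is uncertain. No other pair among the 10 genes shared a run of over 18 bases.

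Tlr4, the receptor for bacterial lipopolysaccharide, lies at chr4:66827584-66930284 (plus strand, ENSMUSG00000039005). Its normalized counts were 243, 273 and 259 in WT vehicle, 259, 302 and 229 in Pear1-/- vehicle, 277, 351 and 301 in WT bleo, and 268, 254 and 244 in Pear1-/- bleo. WT bleo lay just above WT vehicle and just above Pear1-/- bleo, without overlap. The log2 fold change was 0.27 in WT (standard error 0.11, adjusted p = 0.0388) and -0.29 for Pear1-/- bleo against WT bleo (standard error 0.11, adjusted p = 0.0395). Over the 19 other settings tried, the first held its call in 11 and the second in 9. In Pear1-/- the bleo effect was -0.04 (95% interval -0.27 to 0.19, adjusted p = 0.751).

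Cd14 hands lipopolysaccharide to Tlr4 and lies at chr18:36725067-36726798 (minus strand, ENSMUSG00000051439). It had 2197, 3719 and 2124 normalized counts in WT vehicle, 3719, 3727 and 3855 in Pear1-/- vehicle, 8101, 8141 and 7969 in WT bleo, and 5353, 5715 and 5758 in Pear1-/- bleo. WT vehicle replicates 1 and 3 were the lowest of all 12, and replicate 2 sat at the level of Pear1-/- vehicle. Cd14 rose by 1.60 on the log2 scale in WT (standard error 0.15, adjusted p = 2.12e-07), or by 1.98 without WT vehicle replicate 2. In Pear1-/- it rose by 0.58 (standard error 0.15, adjusted p = 0.00317), and Pear1-/- bleo differed from WT bleo by -0.54 (standard error 0.15, adjusted p = 0.0073), with no overlap in either comparison. Ly96, the extracellular partner of Tlr4 also called MD-2, had 79.5 ± 3.78 normalized counts in WT vehicle, against 195 ± 11.4 in WT bleo and 117 ± 16.7 for Pear1-/- bleo.

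Tlr5, the receptor for bacterial flagellin, lies at chr1:182954788-182976044 (plus strand, ENSMUSG00000079164). It had 24.3, 27.4 and 9.16 normalized counts in WT vehicle, 21.8, 25.0 and 19.6 in Pear1-/- vehicle, 9.18, 12.2 and 21.3 in WT bleo, and 37.3, 29.2 and 29.5 in Pear1-/- bleo. All Pear1-/- bleo libraries were above every other library, and the WT libraries of both treatments overlapped. Pear1-/- bleo exceeded WT bleo (log2 fold change 1.16, standard error 0.37, adjusted p = 0.0168). The call was lost without WT bleo replicate 1 (0.91, adjusted p = 0.0972), WT bleo replicate 2 (1.06, adjusted p = 0.0703) or Pear1-/- bleo replicate 1 (1.02, adjusted p = 0.0766).

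The endosomal receptors followed. Tlr9, which binds unmethylated CpG DNA, is a single-transcript gene at chr9:106222598-106226883 (plus strand, ENSMUSG00000045322). Its normalized counts were 23.0, 17.2 and 33.2 in WT vehicle, 11.4, 10.2 and 16.4 in Pear1-/- vehicle, 176, 142 and 163 in WT bleo, and 37.3, 35.2 and 46.7 in Pear1-/- bleo. The 4 groups did not overlap with one another. The log2 fold change of bleo was 2.73 in WT (standard error 0.21, adjusted p = 2.37e-08) and 1.66 in Pear1-/- (standard error 0.27, adjusted p = 7.48e-05), and that of Pear1-/- bleo against WT bleo was -2.03 (standard error 0.19, adjusted p = 5.12e-07), the lowest of the 10 genes.

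Tlr7, which binds single-stranded RNA, lies at chrX:167304929-167330558 (minus strand, ENSMUSG00000044583). It had 84.9, 57.8 and 67.5 normalized counts in WT vehicle, 55.9, 75.1 and 43.7 in Pear1-/- vehicle, 297, 293 and 262 in WT bleo, and 105, 119 and 109.6 in Pear1-/- bleo. Vehicle libraries of the 2 genotypes overlapped, while both bleo groups stood clear of them and of each other. Bleo raised Tlr7 by 2.04 on the log2 scale in WT (standard error 0.16, adjusted p = 2.46e-08) and by 0.92 in Pear1-/- (standard error 0.17, adjusted p = 0.000264). Against WT bleo, Pear1-/- bleo fell by 1.37 (standard error 0.14, adjusted p = 1.89e-06). Unc93b1, the chaperone that carries the endosomal receptors out of the endoplasmic reticulum, had 1355 ± 114 normalized counts in WT vehicle, against 7019 ± 112 in WT bleo and 2807 ± 40.2 for Pear1-/- bleo.

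Tlr3, the receptor for double-stranded RNA, signals through Ticam1 rather than Myd88 and lies at chr8:45395665-45411080 (minus strand, ENSMUSG00000031639). It had 192, 141 and 209.5 normalized counts in WT vehicle, 159, 144 and 129.9 in Pear1-/- vehicle, 168, 193 and 162 in WT bleo, and 89.7, 81.7 and 86.7 in Pear1-/- bleo. The Pear1-/- bleo libraries lay below all 9 others. WT vehicle overlapped with both WT bleo and Pear1-/- vehicle, and the latter groups did not overlap with each other. In WT the bleo effect was -0.04 on the log2 scale (95% interval -0.33 to 0.25, adjusted p = 0.824). In Pear1-/- Tlr3 fell by 0.74 with bleo (standard error 0.15, adjusted p = 0.000461), and Pear1-/- bleo was lower than WT bleo (log2 fold change -1.03, standard error 0.14, adjusted p = 3.23e-05). An antisense gene, Gm45542, overlaps exons of Tlr3, and the library kit does not keep the strand. Reads within the overlap therefore cannot be told apart. Gm45542 is not among the genes counted under that name, so its level was not seen.

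Myd88, the adaptor, lies at chr9:119335934-119341411 (minus strand, ENSMUSG00000032508). Its normalized counts were 427, 651 and 438 in WT vehicle, 693, 668 and 683 in Pear1-/- vehicle, 605, 625 and 605 in WT bleo, and 630.4, 571 and 585 in Pear1-/- bleo. WT vehicle replicates 1 and 3 were the lowest of the 12 libraries, and replicate 2 lay above all WT bleo libraries. The log2 fold change was 0.28 in WT (standard error 0.12, adjusted p = 0.0484), and this call held in 3 of the 19 other settings, one of them without WT vehicle replicate 2, where the value was 0.58 (adjusted p = 9.54e-09). In Pear1-/- it was -0.19 (adjusted p = 0.173), which became -0.21 (adjusted p = 0.00328) without the same library. Between Pear1-/- bleo and WT bleo the difference was -0.05, with a 95% interval from -0.30 to 0.20 (adjusted p = 0.756). Exons of Acaa1a on the opposite strand overlap Myd88, and Acaa1a had 685 to 1107 counts per library.

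Counted together, 8 of the 10 genes were called higher and 0 lower in WT bleo than in WT vehicle at an adjusted p under 0.05, where 68.0% of all genes tested were called, 31.4% higher and 36.6% lower. Without the low count filter, the split of all called genes was 6346 higher and 13092 lower, against 5463 and 6375 with it. Without WT vehicle replicate 2, 8 genes were again called, beside 76.4% of all genes, and the log2 fold changes of Tlr1, Tlr2, Tlr7 and Tlr9 were 3.04, 1.73, 1.98 and 2.58. The 5 genes called and higher by over 2-fold (Tlr1, Tlr2, Tlr7, Tlr9 and Cd14) stand beside 10.5% of all genes. The groups did not overlap for 7 genes, as for 68.7% of all genes. The median log2 fold change was 1.25 for the 10 genes and -0.07 for all genes.

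In Pear1-/-, bleo raised 5 genes (Tlr1, Tlr2, Tlr7, Tlr9 and Cd14) and lowered 1 (Tlr3), where 62.3% of all genes were called, 28.9% higher and 33.4% lower. The rise was over 2-fold for 3 of them (Tlr1, Tlr2 and Tlr9), beside 8.38% of all genes. Of the markers, 13 of 15 for macrophages and monocytes were higher in this comparison (median 1.74), while 8 of 8 for T and NK cells and 5 of 6 for B cells were lower, and their part was not tested. Groups did not overlap for 8 of the 10 genes and for 70.9% of all genes. The medians were 0.55 and -0.05 on the log2 scale.

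For Pear1-/- bleo against WT bleo, 7 genes were lower (Tlr1, Tlr2, Tlr3, Tlr4, Tlr7, Tlr9 and Cd14) and 1 higher (Tlr5), where 46.0% of all genes were called, 22.1% higher and 23.9% lower. By over 2-fold, 4 were lower (Tlr1, Tlr3, Tlr7 and Tlr9) and 1 higher, beside 8.76% and 6.26% of all genes. For 9 of the 10 genes the groups did not overlap, against 62.9% of all genes. The median log2 fold change was -0.73 for the 10 genes and -0.01 for all genes. These comparisons share their bleo or vehicle libraries and are not independent of each other.

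**Figure D2:**
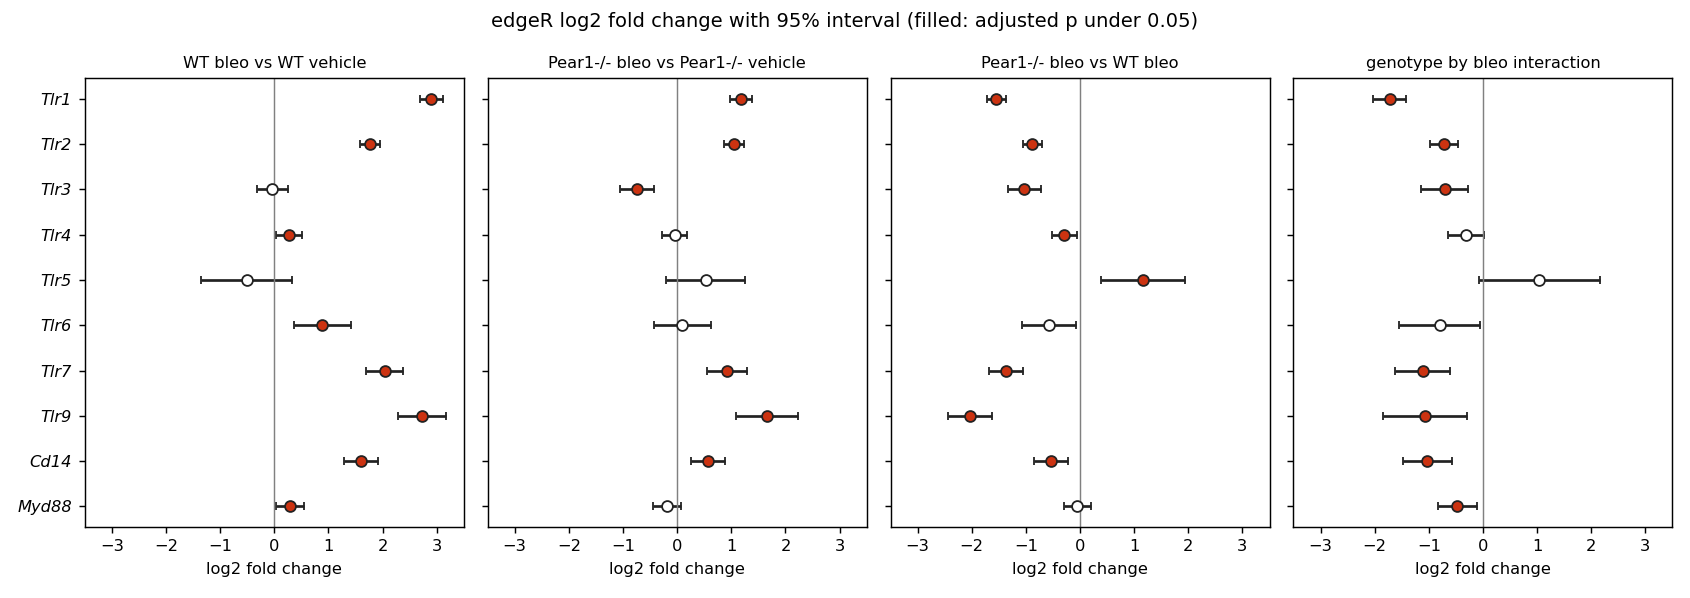
edgeR log2 fold change (x axis) of the 10 genes in 3 comparisons and in the interaction of genotype and bleo, with 95% intervals. Filled points have an adjusted p under 0.05. In WT bleo against WT vehicle, 8 genes were called and all were higher, while in Pear1-/- bleo against WT bleo 7 were lower and Tlr5 was higher.

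Whether bleo acted differently in the 2 genotypes was tested by the interaction term, the log2 fold change of bleo in Pear1-/- minus that in WT. It was called for 7 of the 10 genes, 0 higher and 7 lower, where 37.0% of all genes were called, 17.9% higher and 19.1% lower. Tlr1 had -1.72 (standard error 0.14, adjusted p = 3.95e-07), Tlr7 -1.12, Tlr9 -1.07 and Cd14 -1.02, all past 2-fold, which 7.06% of all genes were in that direction. Tlr2 had -0.71 (adjusted p = 0.000303), Tlr3 -0.71 (adjusted p = 0.0123) and Myd88 -0.47 (adjusted p = 0.0387). Tlr4 (-0.31), Tlr5 (1.04) and Tlr6 (-0.80) were not called.

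The interaction calls for Tlr1, Tlr2, Tlr3, Tlr7 and Cd14 held under all 18 other settings. Tlr9 lost its call without WT vehicle replicate 1 (adjusted p = 0.0576) and without Pear1-/- vehicle replicate 3 (adjusted p = 0.094), at -1.04 and -0.91. Myd88 held its call in 5 of 18 settings. Without WT vehicle replicate 2, the interaction was called for 9 genes, beside 46.4% of all genes, Tlr6 at -1.40 and Tlr4 at -0.44 being added. In that fit Tlr1 had -1.88, Cd14 -1.42 and Myd88 -0.78. Markers of other cells moved with the interaction: it was called and negative for 12 of 15 macrophage and monocyte markers (median -1.15), 6 of 6 leukocyte markers (median -1.17) and 6 of 6 B cell markers (median -1.06), and their part in the values of the 10 genes was not tested.

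Between the vehicle groups, 0 of the 10 genes were called by edgeR, where 4.50% of all genes were, while 4 genes had an unadjusted p under 0.05 and DESeq2 called 2, beside 8.54% of all genes. Nearest the threshold were Myd88 at a log2 fold change of 0.42 (adjusted p = 0.0538), Cd14 at 0.49 (adjusted p = 0.0602) and Tlr9 at -0.96 (adjusted p = 0.0635). The groups did not overlap for 2 genes, Tlr9 and Myd88, and for 19.2% of all genes. Without WT vehicle replicate 2, 6 genes were called, where 55.2% of all genes were. In that fit Cd14 (0.87, adjusted p = 4.49e-18), Myd88 (0.72, adjusted p = 1.67e-10) and Tlr6 (0.81, adjusted p = 0.00267) were higher in Pear1-/- vehicle. Tlr9 (-1.11, adjusted p = 0.00385), Tlr3 (-0.40, adjusted p = 0.00434) and Tlr2 (-0.19, adjusted p = 0.00557) were lower.

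The neutrophil markers moved with this library. The sum of 6 neutrophil markers was 134.8 to 144.9 CPM in WT vehicle replicates 1 and 3, 369.5 in replicate 2 and 351 to 391 in Pear1-/- vehicle, and the 6 B cell markers summed to 419 to 433, 731 and 715 to 773. The 15 macrophage and monocyte markers stayed between 929 and 1032 CPM in all 6 vehicle libraries. The part of any of these cells in the vehicle levels of Cd14, Myd88 and Tlr6 was not tested.

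**Figure D3:**
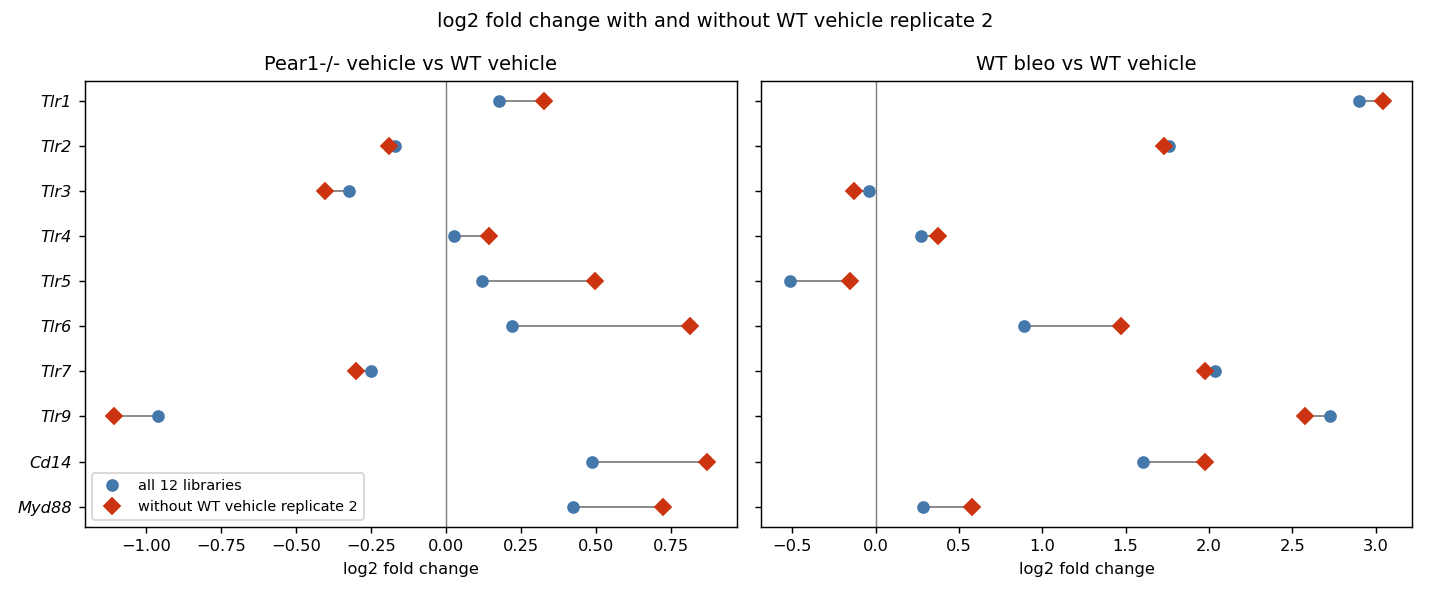
Log2 fold change (x axis) of the 10 genes between Pear1-/- vehicle and WT vehicle, and between WT bleo and WT vehicle, with all 12 libraries (circles) and without WT vehicle replicate 2 (diamonds). Cd14, Myd88 and Tlr6 moved to higher values in both comparisons when the library was left out, Tlr6 from 0.22 to 0.81 in the vehicle comparison, while Tlr2 moved from -0.17 to -0.19.

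Levels of different genes were compared per kb of annotated exon. Cd14 was the highest in every group, from 172 ± 58.3 CPM per kb in WT vehicle to 528 ± 4.75 in WT bleo, followed by Tlr2 (62.9 ± 7.38 and 215 ± 4.71) and Myd88 (21.9 ± 5.51 and 26.9 ± 0.484). Ranges of these top 3 did not overlap in any group. Tlr1 was 6th in WT vehicle at 2.87 ± 0.298 and 4th in WT bleo at 21.7 ± 0.558, below Myd88 and above Tlr7 (7.88 ± 0.505) without overlap. At the low end of the order in WT vehicle, the neighbours Tlr7 (1.91), Tlr6 (1.32), Tlr9 (0.785) and Tlr5 (0.471) overlapped in their ranges. Tlr5 was last in WT bleo, at 0.337 ± 0.150.

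The rest of the pathway was described by 6 lists holding 74 genes. Their counts stand beside 31.4% of all genes called higher and 36.6% lower in WT bleo, and 22.1% higher and 23.9% lower in Pear1-/- bleo against WT bleo. Receptors and accessory proteins outside the 10 genes were higher in WT bleo for most, with 11 of 13 higher and 1 lower (median log2 fold change 1.32). Ly86, the partner of the receptor homologue Cd180, rose most (3.43, adjusted p = 2.17e-14), followed by Tlr8, another endosomal receptor for RNA (2.87). In Pear1-/- bleo against WT bleo, 10 of 13 were lower and 1 higher (median -0.97), led by Tlr12, a receptor for a profilin of parasites (-2.50, adjusted p = 2.19e-08), and Tlr8 (-1.80). Tlr8 had 46.1 ± 11.2 normalized counts in WT vehicle, against 335 ± 32.7 in WT bleo and 97.7 ± 19.2 for Pear1-/- bleo.

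Of adaptors and kinases, 13 of 16 were higher in WT bleo (median 0.56), and 8 were lower and 1 higher in Pear1-/- bleo against WT bleo (median -0.22), the latter a share of called genes near the 46.0% of all genes. Irak1, the kinase recruited by Myd88, was at 1.14 and -1.07 in these comparisons, Tab2, an adaptor of the kinase Tak1, rose by 1.12, and Ticam1, the adaptor of Tlr3, fell by 0.95 in the second (adjusted p = 3.13e-05). Ticam2, the bridging adaptor of Tlr4, was counted with the receptors and accessory proteins, at 1.89 and -0.90. Of 8 transcription factors, 6 were higher in WT bleo, among them Irf5 (1.61) and Irf7 (1.24), and 4 were lower in Pear1-/- bleo against WT bleo, among them the NF-kB subunits Rel (-1.19) and Nfkb1 (-0.91). The interaction was negative and called for all 8, beside 19.1% of all genes. Between the vehicle groups, 0 of the 8 were called with all 12 libraries. Without WT vehicle replicate 2, 7 were higher in Pear1-/- vehicle, beside 55.2% of all genes called.

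NF-kB response genes were mixed in WT bleo, with 7 of 12 higher and 3 lower. Il1b, which encodes interleukin 1 beta, rose by 2.28 on the log2 scale and the chemokine gene Ccl2 by 1.69. Against WT bleo, 9 of 12 were lower in Pear1-/- bleo and 0 higher, with Tnf at -1.34 (adjusted p = 2.25e-07) and the chemokine gene Cxcl10 at -1.30 (adjusted p = 3.53e-10). Tnf averaged 2014 ± 418 normalized counts for WT vehicle, 1474 ± 73.0 for Pear1-/- vehicle, 2790.0 ± 99.0 for WT bleo and 1111 ± 31.1 for Pear1-/- bleo. Tnf was lower in the libraries labelled Pear1-/- with vehicle as well (log2 fold change -0.46, adjusted p = 0.0429). No other gene of the 12 was called between the vehicle groups (median 0.23), where 4.50% of all genes were. Without WT vehicle replicate 2, 9 of the 12 were higher in Pear1-/- vehicle and 1 lower (median 0.43), beside 55.2% of all genes called.

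Of the negative regulators, 2 of 12 were higher and 4 lower in WT bleo (median 0.01), or 6 higher and 3 lower without WT vehicle replicate 2 (median 0.20). The phosphatase gene Inpp5d rose by 1.51, and Sarm1, which is counted as an inhibitor of Ticam1, fell by 1.66 at under 30 normalized counts on average. In Pear1-/- bleo against WT bleo, 2 were lower and 1 higher, with Inpp5d at -1.02 and Tnfaip3, the deubiquitinase A20, at -0.44.

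Genes of endogenous ligands fell more often than they rose in WT bleo, with 8 of 13 lower and 3 higher (median -0.66). S100a8, a neutrophil calcium-binding protein, fell by 3.12 on the log2 scale, from 3813 ± 2748 normalized counts, or by 2.28 without WT vehicle replicate 2, and the matrix protein gene Tnc rose by 2.70. The spread of S100a8 in WT vehicle came with the neutrophil markers of replicate 2 given above, and their part was not tested. In Pear1-/- bleo against WT bleo, 7 were higher and 4 lower, the lowest being the surfactant protein genes Sftpa1 (-1.74) and Sftpd (-1.63), which epithelial cells make. The 8 epithelial markers summed to 1679 to 1710 CPM in WT bleo and 748 to 757 in Pear1-/- bleo.

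**Figure D4:**
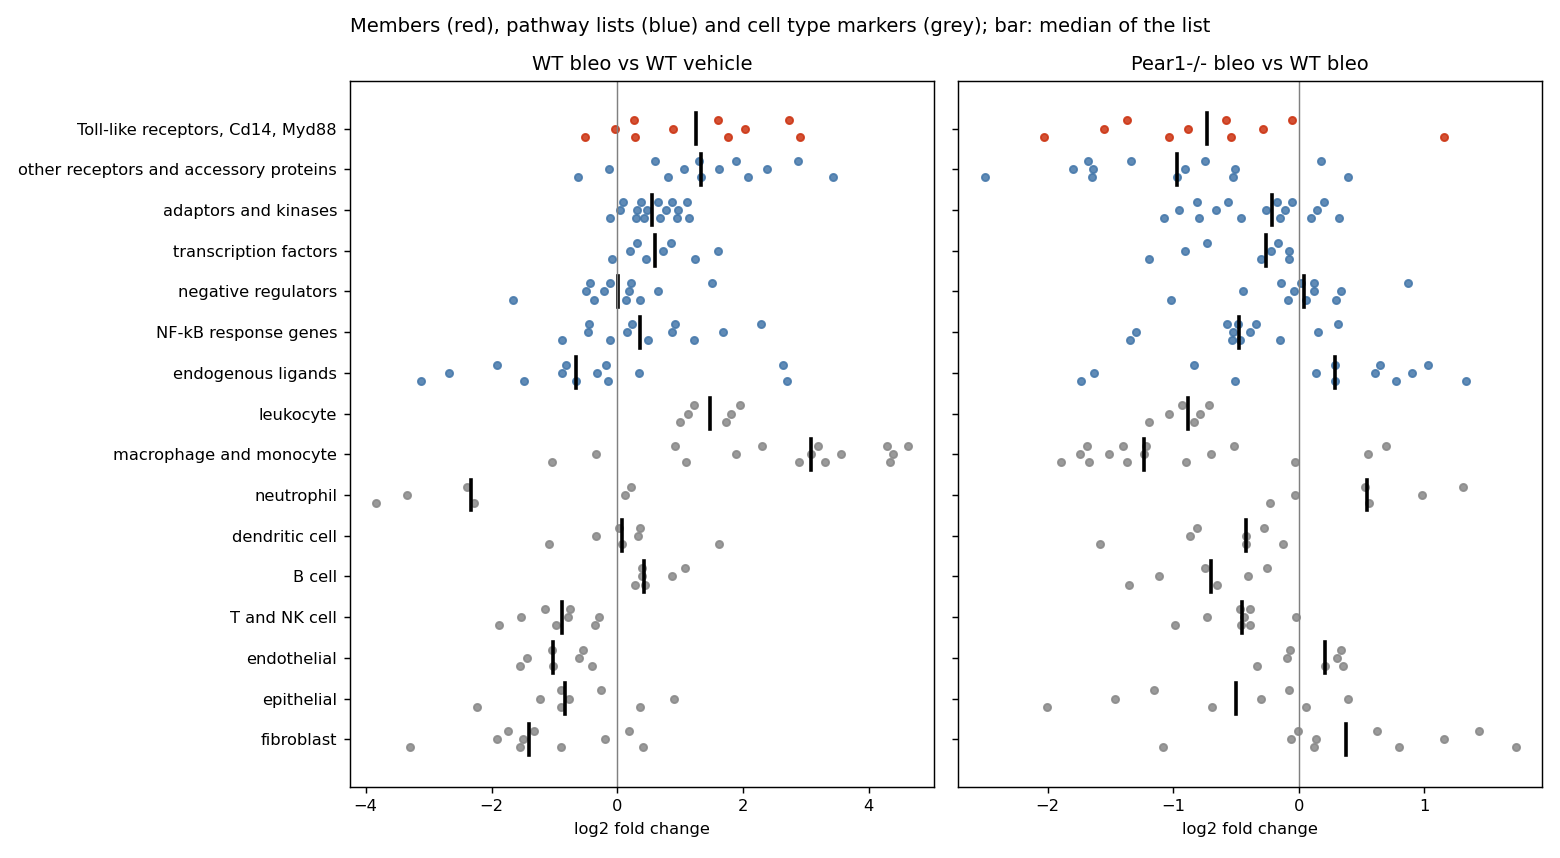
Log2 fold change (x axis) of each gene of the 10 described here (red), of 6 pathway lists (blue) and of 9 cell type marker lists (grey) in WT bleo against WT vehicle and in Pear1-/- bleo against WT bleo. Bars are the medians of the lists. The median of the 10 genes was 1.25 and -0.73, and that of the macrophage and monocyte markers 3.08 and -1.23.

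Macrophage and monocyte markers moved with the receptors. Of 15 markers, 13 were higher in WT bleo than in WT vehicle (median log2 fold change 3.08) and 12 lower in Pear1-/- bleo than in WT bleo (median -1.23). Csf1r, the receptor for macrophage colony-stimulating factor, averaged 1237 ± 24.6 normalized counts for WT vehicle, 1187 ± 70.8 for Pear1-/- vehicle, 10385 ± 159 for WT bleo and 3964 ± 26.6 for Pear1-/- bleo (SD, n = 3). Ptprc, which encodes CD45, was at a log2 fold change of 1.22 and -1.19 in the same comparisons. The part of these cells in the levels of the 10 genes was not tested.

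All 6 general leukocyte markers were higher in WT bleo than in WT vehicle (median 1.47) and lower in Pear1-/- bleo than in WT bleo (median -0.88). Neutrophil markers fell in WT bleo for 4 of 6 (median -2.33), to a sum of 85.9 to 89.0 CPM, and T and NK cell markers for 7 of 8. Without WT vehicle replicate 2, 4 neutrophil markers fell and 2 rose (median -1.35), the latter being Csf3r at 1.18 and Mmp8 at 0.90. B cell markers were higher in WT bleo for 5 of 6 (median 0.42) and lower in Pear1-/- bleo than in WT bleo for 5 of 6 (median -0.70). Fibroblast markers were lower in WT bleo for 8 of 10 and higher in Pear1-/- bleo than in WT bleo for 5 of 10. The sum of 7 dendritic cell markers was 341 to 416 CPM in WT vehicle, 423 to 439 in WT bleo and 305 to 313 in Pear1-/- bleo, and that of the endothelial markers 376 to 460, 211 to 226 and 235 to 250.1.

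For each gene, the 3 genes with the most similar pattern were sought among the genes whose log2 CPM averaged 3 or more, by the root mean square difference of log2 CPM, each gene centred on its own mean over the 12 libraries. Tlr1 was nearest to Rgs10 (0.127), Cd84 and Mpeg1, which encodes a macrophage pore-forming protein. Tlr2 was nearest to Bcl2a1d (0.085), Mdfic and Picalm, and Tlr7 to Rasa4 (0.184), Naip2 and Amz1. For Tlr9 they were Hpgds (0.289), a prostaglandin D synthase, Clec4b1, a C-type lectin, and Adap2. Cd14 had Coro1a (0.099), a leukocyte actin-binding protein, AI662270 and Arrdc1.

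Tlr6 was nearest to the chemokine gene Cxcl2 (0.179), Tnfaip2 and Fbxo34, and Myd88 to Tnfrsf13b (0.067), a B cell receptor for tumour necrosis factor family ligands, Dcaf12 and Atrnl1. Tlr4 was nearest to Herc4 (0.071), Chmp2b and Cpne3, and Tlr3 to Psd3 (0.113), Kcnq1ot1 and RP24-439I22.3. Tlr5 was nearest to Krt80 (0.323), Hyal2 and Nfatc4. Among the 10 genes themselves, Tlr2 and Tlr7 were the closest pair (0.232) and Tlr5 and Tlr9 the farthest apart (1.65).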

How the data were processed

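RNA of sorted Pdgfra+ lung cells was amplified with the SMART-Seq v4 kit, which does not mark strand, and sequenced by the authors as 12 libraries. The authors aligned reads of 151 bases to GRCm38 with HISAT2 version 2.1, the submitters' notes name FastQC, and the counting program is not given in the sources used here. The authors deposited raw read counts of 40760 genes, and a second deposited table of normalized signal, which equals the counts divided by DESeq2's size factor of each library (largest relative difference 1.09e-10). Normalized counts in the text come from that table.

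The counts of 17418 genes passing edgeR's filterByExpr were fitted with edgeR (version 4.0.16, R version 4.3.3), TMM normalization, 1 mean per group and the two-sided quasi-likelihood test. P-values were adjusted by Benjamini-Hochberg over all 17418 genes, and a gene was called at an adjusted p under 0.05. Standard errors are the fold change divided by the root of the F statistic. The test was also run on counts simulated with levels and spread taken from the finished fit. That simulation held no library standing apart as WT vehicle replicate 2 did. With 3 libraries against 3, an exact permutation test of single genes cannot go below p = 0.1, which 7, 8, 9 and 2 of the 10 genes reached in WT bleo, Pear1-/- bleo, between the bleo groups and between the vehicle groups.

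The 10 genes, the pathway and marker lists and the named genes were chosen with earlier results of these data known. Named genes were the 10 genes, 2 genes per pathway list with the largest called change in each of 2 comparisons (mean log2 CPM of at least 1, groups not overlapping), the 3 most similar genes for each, and fixed cell type markers, and Ly96, Unc93b1, Ticam2, Csf3r, Mmp8, Col1a2 and Col3a1 were added after their values were seen. Alternatives were RLE size factors, no filter, DESeq2 (version 1.42.0), limma (version 3.58.1) on log2 normalized values with a pseudocount of 1 or 5, a fit of only the 2 groups compared, a replicate block and leaving out each library; the lists without WT vehicle replicate 2 were computed after seeing the data. Gene positions are from the GENCODE annotation of GRCm38 and promoter sequences from RefSeq, in which the NF-kB consensus was searched after the other motifs had been seen.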

Additional observations from a re-analysis of the deposited data

Results flagged for a closer look

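Bleo had different effects in the 2 genotypes for 7 of the 10 genes by the test of the interaction itself (edgeR, adjusted p under 0.05), which called 37.0% of all genes. The difference, the log2 fold change of bleo in Pear1-/- minus that in WT, was -1.72 for Tlr1, -1.12 for Tlr7, -1.07 for Tlr9, -1.02 for Cd14, -0.71 for Tlr2, -0.71 for Tlr3 and -0.47 for Myd88. For Tlr1, Tlr2, Tlr7, Tlr9 and Cd14 both effects were positive and the one in Pear1-/- was smaller. Tlr3 fell in Pear1-/- and was not called in WT, and Myd88 was called in WT and not in Pear1-/-, where its log2 fold change was -0.19. The call of Myd88 in WT held in 3 of 19 other settings and its interaction in 5 of 18, and without WT vehicle replicate 2 its change in Pear1-/- was called too (-0.21, adjusted p = 0.00328). The interaction was also called and negative for 12 of 15 macrophage and monocyte markers (median -1.15), 6 of 6 leukocyte markers (median -1.17) and 6 of 6 B cell markers (median -1.06), whose part was not tested. The genotype is the deposited label, and the vehicle libraries of both labels had like counts of Pear1.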

How the results depend on the processing

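Leaving out 1 library at a time gave 6 to 8 called genes for bleo in WT (8 with all libraries, beside 63.6% to 76.4% of all genes), 6 to 7 for bleo in Pear1-/- (6, beside 50.3% to 68.0%), 6 to 9 between the bleo groups (8, beside 31.5% to 49.2%), 5 to 9 for the interaction (7, beside 26.1% to 46.4%) and 0 to 6 between the vehicle groups (0, beside 0% to 55.2%), the 6 being without WT vehicle replicate 2. Between the vehicle groups, 3 genes were called without the low count filter (13.8% of all genes) and 2 with DESeq2 (8.54%). Calls that held in every setting were those of Tlr1, Tlr2, Tlr6, Tlr7, Tlr9 and Cd14 for bleo in WT, of Tlr1, Tlr2, Tlr3, Tlr7, Tlr9 and Cd14 for bleo in Pear1-/- and between the bleo groups, and of Tlr1, Tlr2, Tlr3, Tlr7 and Cd14 for the interaction. Signs turned for values near 0. Without the filter, Tlr3 in WT bleo was at 0.10 and Tlr4 in Pear1-/- bleo at 0.0096, a setting that moved the median of all genes tested by 0.13 in WT bleo against WT vehicle. With single libraries left out, Tlr3 in WT bleo ran from -0.13 to 0.091, Tlr4 in Pear1-/- bleo from -0.14 to 0.050, and in the vehicle comparison Tlr4 from -0.037 to 0.15, Tlr5 from -0.22 to 0.50 and Tlr6 from -0.045 to 0.81. The cause was not tested. The replicate numbers gave no sign of pairing, which the labels do not state. Deviations of same-numbered libraries correlated at -0.161 to 0.0997 over 18 pairs, against -0.147 to 0.151 over 36 pairs of different numbers. A replicate block left the number of called genes at 8, 6, 8, 0 and 7 and changed no call. Tlr5 and, in vehicle, Tlr9 had under 40 normalized counts per library, which limits what can be seen for them.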
